A study of Mus musculus with 2 samples.

Results

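The Notch pathway was followed in 10 genes, chosen by name: the receptor genes Notch1, Notch2, Notch3 and Notch4, the ligand genes Jag1, Jag2 and Dll1, and the target genes Hes1, Hey1 and Nrarp. A probe set, a group of short probes on the array, was counted for a gene when the platform annotation gave that gene's symbol and no other, and 19 probe sets of the 45101 on the array met this rule. RNA came from Mle29c and Mlesico, both described in the labels as mouse epithelial cell lines, with 1 oligonucleotide array for each line. Cells of both lines were cultured in DMEM with serum and without further treatment, and the study is about miR-29c, a small regulatory RNA, in lung fibrosis. The labels do not say how either line was made, whether it is 1 clone, or in which direction miR-29c differs in Mle29c.

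Notch signalling passes between touching cells. A ligand of the Jagged or Delta-like family on one cell binds a Notch receptor on the next, proteases of the Adam family and then gamma-secretase cut the receptor, and the freed intracellular part enters the nucleus, where it turns the DNA-binding protein Rbpj from a repressor into an activator. Genes of the Hes and Hey families, which encode repressors, and Nrarp, which encodes an inhibitor of the pathway, are among the best known targets. In the lung, the pathway is known for its part in the choice between secretory and ciliated airway cells, and in the airway it also acts in basal cells.

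The deposited values were centred signals, in which the 2 values of a probe set mirror each other around 0, so a value says how far an array lies from the midpoint of both and not how abundant the transcript is. They were read as log2 values, and every difference below is a log2 ratio, the Mle29c value minus the Mlesico value, where 1 means 2-fold. With 1 array per line there is no replicate check, no p-value can be given, and the number of arrays limits the precision. The only spread at hand is technical: different probe sets of 1 gene had a pooled SD of 0.62 in log2 ratio over 6898 genes, and of 0.99 over the 809 genes of these whose probe sets were all of middle level. A coarse level class was read from the rounding of the numbers. It called a probe set high when the mean log2 level of both arrays was at least 8. Middle meant a mean of at least 4 with the lower array below 8. Low meant a mean below 4, or a rounding that showed an array below 4. The rounding does not show every such array, so the weaker array of a middle probe set may also lie below 4. Where the rounding could not separate high from middle, the class is given as high or middle. Genes with 1 or more probe sets above the low class are called measured, which held for all 10 genes, for 18 of their 19 probe sets, and for 14824 of 18194 genes in all. Measured does not mean expressed: 41.2% of 80 probe sets for olfactory and vomeronasal receptors, genes not known from such cells, also passed, most of them in the middle class. A gene's value is the median over those probe sets. Of the 18 probe sets, 11 were middle, 6 high or middle, and 1 high, a Jag2 probe set. Of the middle calls, 3 rested on the rounding step alone (1 probe set each of Notch1, Jag1 and Dll1), and these give a bound from above but none from below.

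Notch1 was higher in Mle29c and Notch3 and Jag1 were lower, while Notch2, Notch4, Jag2 and Dll1 differed by less than 2-fold. Of the targets, Hey1 was higher, and Hes1 and Nrarp were above 0 but within 2-fold. In all, 4 of 10 genes were past 2-fold, 2 higher and 2 lower. Among all measured genes 15.6% were past 2-fold, with 8.41% higher and 7.18% lower. The share is larger among weak signals: 22.8% of 10521 middle-class probe sets with a gene name were past 2-fold, against 5.4% of 6239 in the high class. Of 6898 genes with 2 or more measured probe sets, 3.35% had all of them past 2-fold on the same side, and Notch1, Notch3 and Jag1 were 3 such among the 7 of the 10 genes that could qualify. At 1.5-fold the count was still 4 of 10, near the 31.8% of all measured genes. The 4 genes past 2-fold all had middle-class probe sets, joined in Jag1 by a probe set of the high or middle class. Since 10 genes were chosen by name with earlier results of these arrays known, their share was not tested.

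**Figure D1:**
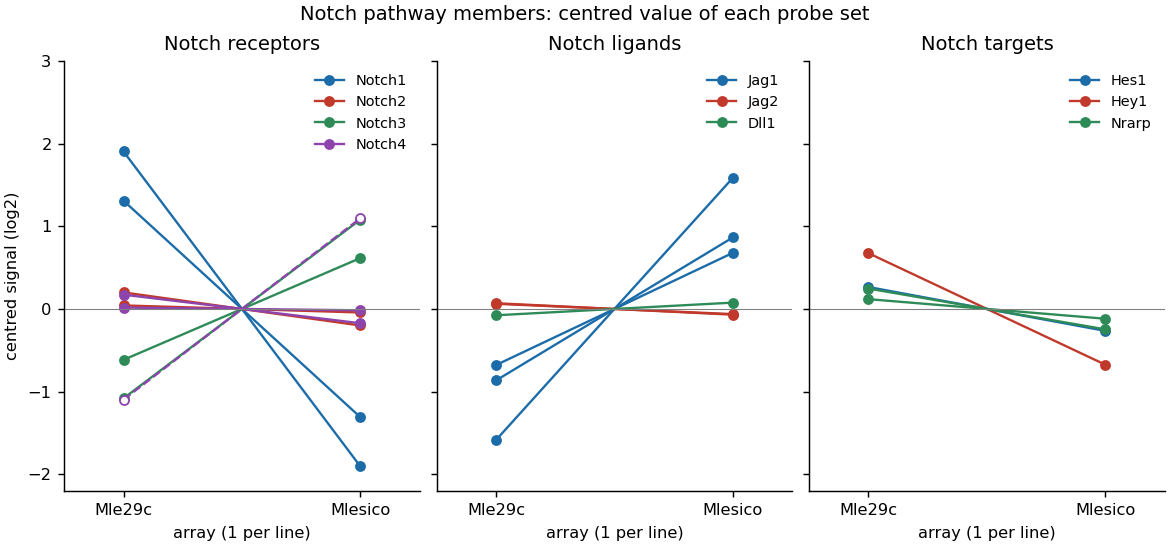
Centred log2 signal (vertical axis) of each probe set in the Mle29c and the Mlesico array, with 1 line per probe set and 1 panel per role; a dashed line with open points marks the low-class probe set of Notch4. Both Notch1 lines slope down from Mle29c to Mlesico, all Notch3 and Jag1 lines slope up, and the 4 target lines lie above 0 in Mle29c.

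The receptors went in different directions. Notch1 encodes the most widely studied receptor of the family. Its probe sets (1418633_at and 1418634_at) stood at 1.31 and 1.91 in Mle29c, against -1.31 and -1.91 in Mlesico. The log2 ratios were thus 2.62 and 3.81, with a gene value of 3.22, or 9.30-fold. By the class bounds, the probe set at 3.81 had a log2 level of at least 5.91 in Mle29c, and the probe set at 2.62 was below 6.69 in Mlesico. In Mlesico the probe set at 3.81 was bounded only at 2.09 or more. The probe sets differed by 1.19 from each other, and both ratios were larger than the probe set error of the gene value, which was 0.44 from the pooled SD of all genes and 0.70 from that of middle-level genes. Errors below come from all genes unless said otherwise. Of all measured genes, 99.1% lay below Notch1.

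Notch3 encodes a receptor best known from smooth muscle and pericytes, and it is also expressed in airway basal and parabasal cells. Its probe sets (1421964_at and 1421965_s_at) stood at -0.62 and -1.08 in Mle29c, against 0.62 and 1.08 in Mlesico. The ratios were -1.23 and -2.16, and the gene value -1.70 was a 3.25-fold lower level in Mle29c, with 3.04% of measured genes below it. Its probe set error was 0.44, or 0.70 from middle-level genes. The name of the probe set at -2.16 carries the suffix that the array maker uses for probes shared between transcripts, and the other probe set alone was also past 2-fold. Both probe sets were of the middle class, and their log2 levels in Mlesico were at least 4.62 and 5.08. In Mle29c the same bounds were only 3.38 and 2.92.

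Notch2, the receptor closest to Notch1 in structure, stood at 0.04 and 0.20 in Mle29c, against -0.04 and -0.20 in Mlesico. Its gene value of 0.24 (1.18-fold) was smaller than the probe set error of 0.44. Notch4, a receptor known mainly from endothelial cells, had measured probe sets at 0.02 and 0.17 in Mle29c, against -0.02 and -0.17 in Mlesico, and a gene value of 0.19. The remaining probe set of Notch4 read the other way, at -1.10 in Mle29c and 1.10 in Mlesico, a ratio of -2.19, but its mean log2 level was below 4 and it was left out. With it the Notch4 value was 0.03.

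Differences between receptors can be read within the arrays. The ratio of Notch1 exceeded that of Notch3 by 4.92, with a probe set error of 0.62, or 0.99 from middle-level genes, so the amount of Notch1 relative to Notch3 was 30.2-fold larger in Mle29c. Even the nearest probe sets of these genes lay 3.85 apart. Notch1 exceeded Notch2 by 2.97 and Notch4 by 3.03, and Notch3 lay below Notch2 by 1.94 and below Notch4 by 1.89. Notch2 and Notch4 overlapped and differed by 0.05. In order, then, Notch1 stood highest, Notch2 and Notch4 could not be separated, and Notch3 stood lowest. The median of the 4 receptors was 0.22, against 0.01 over all measured genes, and it describes neither Notch1 nor Notch3.

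**Figure D2:**
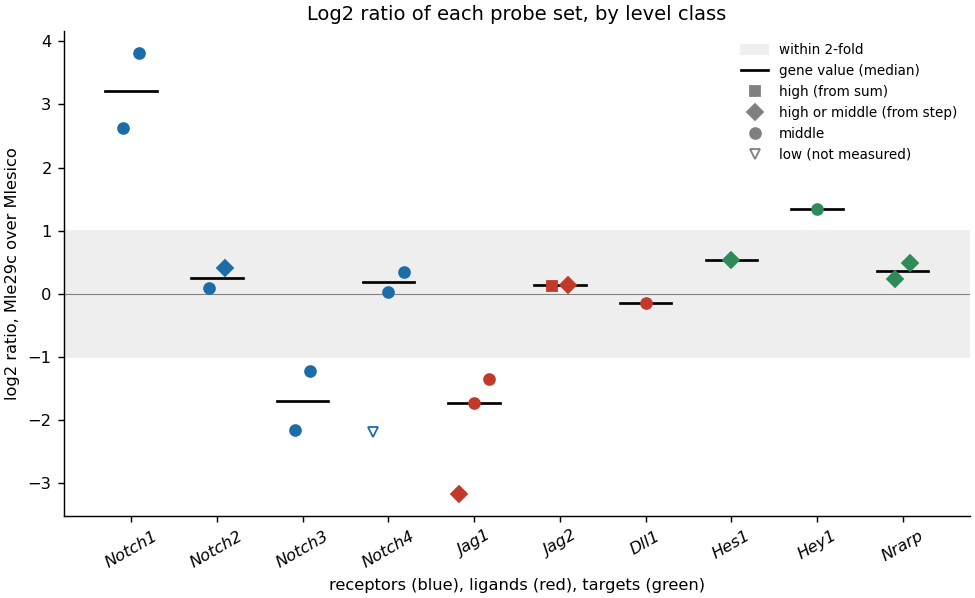
Log2 ratio of Mle29c over Mlesico (vertical axis) for every probe set of the 10 genes, with the marker giving its level class, the bar the gene value and the grey band differences within 2-fold. Probe sets of Notch1 lie at 2.62 and 3.81, those of Notch3 at -1.23 and -2.16, and the 3 of Jag1 between -3.17 and -1.36.

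The sequences before the transcription starts of Notch1 and Notch3 are given because these receptors had opposite ratios. Each is the 250 bases before the annotated start, from RefSeq in build GRCm38.p6, 5′ to 3′ on the strand of the gene, and capitals mark the GC box GGGCGG or its complement CCGCCC, the letters bound by factors of the Sp family.
Notch1 (chr2:26503823-26504072, minus strand): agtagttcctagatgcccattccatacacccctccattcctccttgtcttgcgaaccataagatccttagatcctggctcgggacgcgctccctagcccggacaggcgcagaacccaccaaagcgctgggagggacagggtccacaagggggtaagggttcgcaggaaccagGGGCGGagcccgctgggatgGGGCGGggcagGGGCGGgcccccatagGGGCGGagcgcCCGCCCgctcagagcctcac
Notch3 (chr17:32166891-32167140, minus strand): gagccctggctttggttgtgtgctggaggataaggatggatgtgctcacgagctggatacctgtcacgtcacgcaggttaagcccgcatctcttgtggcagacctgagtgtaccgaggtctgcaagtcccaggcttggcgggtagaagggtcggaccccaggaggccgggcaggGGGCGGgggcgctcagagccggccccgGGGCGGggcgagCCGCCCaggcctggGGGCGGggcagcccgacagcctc
The Notch1 stretch held 5 GC boxes and the Notch3 stretch 4, and their shares of G and C were 66.0% and 68.8%. Of 32851 such stretches in the table, 32.7% held at least 1 GC box, counting both strands. Neither held GTGGGAA or its complement TTCCCAC, the letters that Rbpj prefers, and neither held the shorter TGGGAA or TTCCCA.

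The ligands did not share a direction either. Jag1 encodes a ligand of the Jagged family. Its 3 probe sets (1421105_at, 1421106_at and 1434070_at) stood at -0.68, -0.87 and -1.59 in Mle29c, against 0.68, 0.87 and 1.59 in Mlesico. All were lower in Mle29c, with ratios of -1.36, -1.73 and -3.17, so the gene value was -1.73, a 3.32-fold lower level. Of all measured genes 2.95% lay below it. The range of 1.82 between these probe sets was the widest among the 10 genes over measured probe sets.

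Jag2, the other Jagged ligand, had probe sets at 0.06 and 0.07 in Mle29c, against -0.06 and -0.07 in Mlesico. Its ratios of 0.12 and 0.14 came from a probe set of the high class and another of the high or middle class, and the gene value was 0.13. Dll1, a Delta-like ligand, stood at -0.08 in Mle29c and 0.08 in Mlesico in its 1 probe set, a ratio of -0.15 with a probe set error of 0.62. Jag1 lay below Jag2 by 1.86 and below Dll1 by 1.58, with probe set errors of 0.56 and 0.71. Jag2 and Dll1 differed by 0.28, within their probe set error of 0.76. The median of the 3 ligands was -0.15.

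All 4 probe sets of the targets were higher in Mle29c, but by smaller amounts than Notch1. Hey1, a repressor gene of the Hey family, was read by the probe set 1415999_at and stood at 0.67 in Mle29c and -0.67 in Mlesico. Its ratio of 1.35, or 2.55-fold, rested on 1 middle-class probe set, whose log2 level in Mlesico was bounded only at 3.33 or more. The probe set error was 0.62, or 0.99 from middle-level genes, and 94.9% of measured genes lay below it. Hes1, the founding target among the Hes repressors, stood at 0.27 in Mle29c and -0.27 in Mlesico, also in 1 probe set. Its ratio of 0.53 (1.45-fold) was smaller than the probe set error of 0.62. Nrarp encodes an ankyrin repeat protein that binds the intracellular part of Notch and dampens its activity. It stood at 0.12 and 0.25 in Mle29c, against -0.12 and -0.25 in Mlesico, with ratios of 0.24 and 0.49 and a gene value of 0.37, below its probe set error of 0.44. The median of the 3 targets was 0.53. By comparison, 50.4% of measured genes lay above 0. Among the targets, Hey1 exceeded Nrarp by 0.98 and Hes1 by 0.82, with probe set errors of 0.76 and 0.87. With the SD of middle-level genes these errors were 1.21 and 1.40, larger than both differences.

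Set beside the receptors, the 3 targets had the sign of Notch1, Notch2 and Notch4 and the sign opposite to Notch3. Only Notch1 was past 2-fold in that direction. The targets were smaller in size than Notch1: Hes1 lay 2.69 below it, Nrarp 2.85 and Hey1 1.87, with probe set errors of 0.76, 0.62 and 0.76. From middle-level genes these errors were 1.21, 0.99 and 1.21, still smaller than the differences. In size Hes1 and Nrarp were nearest to Notch2, at differences of 0.29 and 0.12, both inside their probe set errors. Notch4 was close behind at 0.34 and 0.18. Hey1 exceeded Notch2 by 1.11, more than the error of 0.76 from all genes and within the 1.21 from middle-level genes. Against the ligands, all 3 targets had the sign of Jag2 and were opposite to Jag1 and Dll1, and they exceeded Jag1 by 2.10 to 3.08. Hes1, Nrarp, Notch2, Notch4, Jag2 and Dll1 all lay inside their own probe set errors, so their signs are not settled. Only Hey1, Notch1, Notch3 and Jag1 lay outside theirs. With 2 arrays, each gene gives a single difference, so no correlation between a target and a receptor can be computed. Which receptor, if any, the targets follow cannot be told apart from these data.

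The Nrarp stretch is given as that of a target gene that held no Rbpj letters, in the same form, with GC boxes in capitals.
Nrarp (chr2:25180508-25180757, plus strand): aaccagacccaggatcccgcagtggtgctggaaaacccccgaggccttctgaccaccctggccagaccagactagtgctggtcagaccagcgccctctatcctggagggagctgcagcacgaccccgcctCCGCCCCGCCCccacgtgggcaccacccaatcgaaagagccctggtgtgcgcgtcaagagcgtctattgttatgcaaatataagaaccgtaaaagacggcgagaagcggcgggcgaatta
It held 2 overlapping GC boxes and neither GTGGGAA nor TGGGAA on either strand. In all, promoter windows were found for 8 of the 10 genes, and not for Hes1 and Hey1. No window, including the 50 bases after the start, held GTGGGAA or TGGGAA on either strand, although 6.38% of all windows held the longer and 25.6% the shorter form. A missing match says only that these letters are not in the window.

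Other Hes and Hey genes gave a mixed picture. Hes5, a target known from neural progenitors, had the highest value at 2.06, but its probe sets disagreed in size: they stood at 0.20 and 1.86 in Mle29c, against -0.20 and -1.86 in Mlesico, or ratios of 0.40 and 3.71. The suffix of the probe set at 3.71 marks possible cross-hybridisation. Hes6, which encodes an inhibitor of Hes1, stood at 0.67 with probe sets at 0.62 and 0.72. Hey2 stood at -0.86 and Hes2 at -0.52, each from 1 probe set. Heyl had a value of -0.23, and its probe sets ran from -1.26 to 1.02. Hes3 and Hes7 were in the low class. Of the 7 measured Hes and Hey genes, with Hes1 and Hey1 counted, 4 were above 0 and 3 below, against 50.4% of all measured genes above 0. At least 2-fold higher were 2 of the 7, Hey1 and Hes5, against 8.41% of all measured genes. Of the Hes5 probe sets, only the 1 at 3.71 was past 2-fold. The Hes and Hey genes thus had no sign in common.

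Rbpj letters were found in the windows of other genes of the pathway. Of 59 with a window, 7 held GTGGGAA or TTCCCAC: Hes5, Hes7, Hey2, Lfng, Psen2, Aph1a and Spen. The Aph1a match spans the start. Of all windows 6.38% held these letters, but that share is per window, and some of the 59 genes have several, so the counts are not directly comparable. The sites of Hes5 and Hey2 are shown because both are Notch targets with the letters in the window and their log2 ratios had opposite signs, at 2.06 and -0.86. Capitals are the Rbpj letters, shown with 10 bases on either side, from the same RefSeq table and build.
Hes5, 226 bases before the start (chr4:154960687-154960713, plus strand): ggcgagcgcgTTCCCACagcccggaca
Hes5, 83 bases before the start (chr4:154960830-154960856, plus strand): gccgccgagtGTGGGAAcggccgcggc
Hey2, 207 bases before the start (chr10:30842974-30843000, minus strand): cgcggtggcaTTCCCACgcctctgcca
A further Hey2 match spans the start and is not shown. The match is a description of letters and not of binding.

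Among further reported Notch targets, the cyclin gene Ccnd1 had a value of 1.22 from 3 probe sets, the lowest at 1.06 and the highest at 1.56. Dtx1, which encodes a ubiquitin ligase that acts on Notch, stood at -1.67 in its 1 measured probe set, while its low-class probe set read 0.74. The apoptosis regulator gene Bcl2 was at 0.86 over 5 probe sets, Myc at 0.18 and Cdkn1a at 0.23. Of the 9 measured, 1 was at least 2-fold higher and 1 lower, against 8.41% and 7.18% of all measured genes. Their median was 0.18. Many of these genes answer to other pathways as well.

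In the machinery that ligands and receptors share, no gene value was past 2-fold. The 8 genes of the proteases that cut Notch ran from Psenen at 0.37 to Adam10 at -0.36. The other lists held 6 genes of ligand endocytosis, 6 nuclear activators and 11 genes of receptor turnover. Some genes had probe sets that disagreed: the 3 measured ones of Adam10 ran from -1.96 to -0.32, and those of Neurl1a, a gene of ligand endocytosis, from -0.24 to 1.16. Past 2-fold were 15.6% of all measured genes and 5.4% of high-class probe sets, and how far level sets these counts was not tested. Rbpj itself had a value of 0.09, and the lowest and highest of its 3 probe sets were 0.03 and 0.32. The activators ran from Kat2b, an acetyltransferase gene, at 0.59 to the coactivator gene Maml1 at -0.61. Neurl1b, which encodes a ubiquitin ligase for ligands, was the highest of its list at 0.93 and Epn1, an endocytic adaptor gene, the lowest at -0.31. In the turnover list Dtx2 stood at 0.58 and Numb, an inhibitor of Notch, at -0.36.

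Differences past 2-fold were in other places. Of 9 measured corepressors, 3 were at least 2-fold higher in Mle29c, all of the Groucho type, against 8.41% of all measured genes. Tle2 stood at 2.25 in 1 probe set, Tle1 at 1.22 with probe sets at 1.003 and 1.43, and Tle4 at 1.17 with probe sets from 0.15 to 1.29, while Tle3 was at 0.43. The median of the list was 0.30, with Hdac2 lowest at -0.11. Of the 9, 8 were above 0, against 50.4% of all measured genes. These proteins also serve Wnt and other pathways. All 5 measured genes of receptor glycosylation were below 0, against 7353 of all 14824 measured genes, with a median of -0.22. Only Mfng was past 2-fold among these 5. Of them, Mfng, a Fringe glycosyltransferase that changes which ligands a receptor answers to, was at -1.16 in 1 probe set, Rfng at -0.32 and Lfng at -0.17, and Pofut1, which adds the fucose that Fringe extends, was the highest at -0.05. Among other ligands, Dlk1, a noncanonical ligand, stood at 1.22 in its measured probe set, Dll4 at 0.85 and Dner at -0.27. Their low-class probe sets read 1.28 for Dlk1, but had the opposite sign for Dll4, at -0.35, and for Dner, at 1.32.

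Over all 64 other measured pathway genes, 6 were at least 2-fold higher and 2 lower, or 12.5%, close to the 15.6% of all measured genes. Their median was 0.05. With the 10 genes counted in, those past 2-fold were Notch1, Notch3, Jag1, Hey1, Hes5, Tle1, Tle2, Tle4, Ccnd1, Dlk1, Dtx1 and Mfng. The lists name 74 other genes, and those without a measured probe set are not analysed here.

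**Figure D3:**
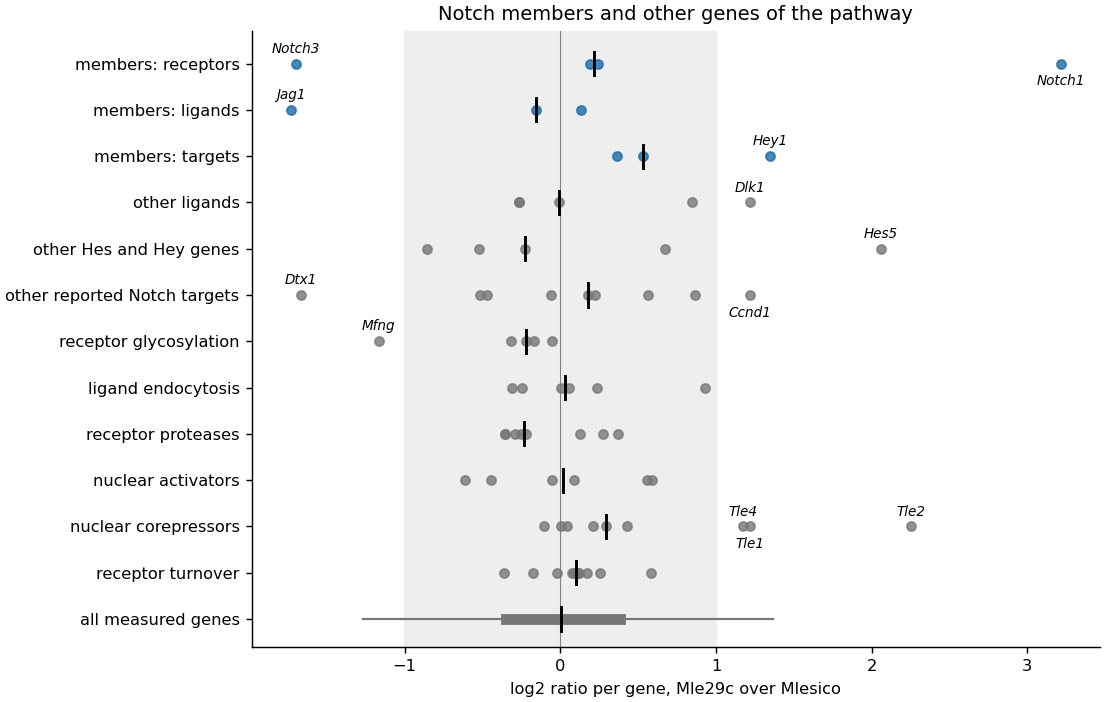
Log2 ratio of Mle29c over Mlesico per gene (horizontal axis) for the 10 genes (blue) and other lists of the pathway (grey), with genes past 2-fold named; black ticks are list medians, the grey band is within 2-fold, and the bottom row gives the middle 50% (thick) and 90% (thin) of all measured genes. Notch1 at 3.22 lies farthest from 0, and lists of proteases, endocytosis, activators and turnover stay within the band.

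Position played no part in the choice of the 10 genes, and each was set beside its neighbours on the chromosome, up to 10 measured genes on each side. Notch1 is on chromosome 2 (GRCm38.p6, chr2:26457902-26503822). All 20 of its neighbours lay below it, from -3.11 to 0.31. None of them was at least 2-fold higher in Mle29c, and 2 were at least 2-fold lower. Nrarp is on the same chromosome, 1.28 megabases away with 51 measured genes between them, whose median was 0.17. Jag1 is also on chromosome 2 (chr2:137081451-137116520), and all 20 of its neighbours lay above it, with a median of -0.01. Notch3 is on chromosome 17 (chr17:32120820-32166896), where 19 of 20 neighbours lay above it. Hey1, near the start of chromosome 3 (chr3:8663359-8667038), had 16 neighbours, of which 15 were below it. Of all measured genes, 99.1% lay below Notch1, 94.9% below Hey1, 3.04% below Notch3 and 2.95% below Jag1. The places of these 4 genes among their neighbours were thus largely set by their own values, and say little about position. For Jag2 (chr12:112907803-112929812) the neighbours had a median of 0.57, and 16 of 20 lay above its 0.13. The other genes lay among their neighbours: Notch2 (chr3:98013538-98150367), Notch4 (chr17:34564286-34588543), Dll1 (chr17:15367354-15376932), Hes1 (chr16:30065357-30067796) and Nrarp (chr2:25180758-25183339) each had 5 or more neighbours above and 10 or more below. The chromosome medians of the 10 genes ran from -0.08 to 0.05, so that subtracting them moved no gene across 2-fold.

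**Figure D4:**
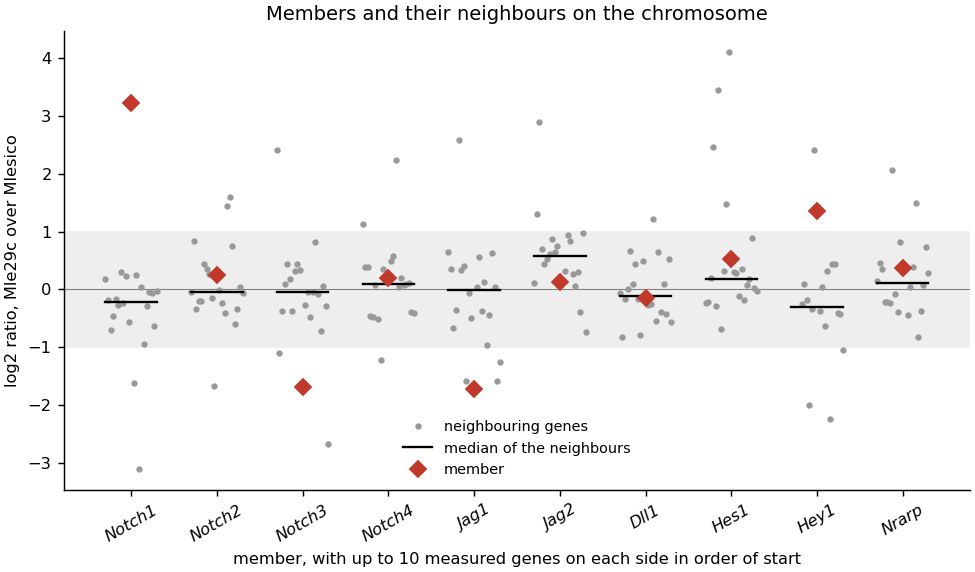
Log2 ratio of Mle29c over Mlesico (vertical axis) of each of the 10 genes (red) and of up to 10 measured genes on each side of it in order of their start (grey), with the median of the neighbours as a bar and the grey band within 2-fold. Notch1 lies above and Jag1 below all of their 20 neighbours. Of all measured genes, 99.1% lie below Notch1 and 2.95% below Jag1.

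The labelled cell type and other cell types were checked by level class. Of 10 epithelial markers, 9 were measured, from Sftpc at 1.66 to Epcam at -0.52, with Cldn4 in the low class. The leukocyte marker Ptprc and the endothelial markers Pecam1 and Emcn were in the low class, and 4 of 6 endothelial markers were measured, from Vwf at 1.40 to Tek at -1.57. Of 6 leukocyte markers 4 were measured, from Laptm5 at 1.02 to Cd52 at -1.79, and of 6 fibroblast markers 5, from Col3a1 at 1.55 to Col1a1 at -3.41. Pdgfrb, a receptor gene of pericytes and fibroblasts, was in the low class, and its probe sets stood at -0.54 and -1.93 in Mle29c, against 0.54 and 1.93 in Mlesico. These are ratios of -1.07 and -3.85. The 5 measured fibroblast markers went both ways: Col1a1 at -3.41, Dcn at -0.32, Pdgfra at 0.05, Col1a2 at 0.09 and Col3a1 at 1.55. Probe sets of Pdgfra ran from -1.30 to 0.14, and Col1a2 had 1 measured probe set. The low-class Pecam1 probe set was at -2.11 and that of Emcn at -0.47. Other low-class markers read the other way, with Cldn4 at 2.33 and Ptprc at 2.11 and 1.24. Ratios of this class are weak evidence: 51.3% of its probe sets called by the step and 60.5% called by the sum were past 2-fold. The part of other cells in the ratios of Notch3 and Notch4, which are known from pericytes and endothelial cells, was not tested.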

How the data were processed

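Total RNA of Mle29c and Mlesico cells was hybridised to 1 oligonucleotide array each. The submitters' processing notes name MAS5, which summarises probes into 1 signal. The deposited log2 values had been centred on the midpoint of both arrays by the authors, as their sums of 0 within 1e-06 show. No source states the base of the logarithm; with a natural log each fold would be larger than given. Signal levels were lost by the centring, and a level class was read from single-precision rounding: a nonzero sum of both values bounds the mean level from below, and the finest step that divides the values (tolerance 0.02 of a step) bounds it from above. Where the sum was 0, high and middle could not be separated from the step, and some low probe sets are taken as higher. As a check, 86.4% of 103 ribosomal protein probe sets came out as high or possibly high and 7.77% as low. Of 80 olfactory or vomeronasal receptor probe sets, 7.5% were high or possibly high and 57.5% low, so the middle class may also hold transcripts that are absent. The rule was also run on simulated levels from an assumed distribution, which need not match the levels of these arrays.

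Gene symbols came from the array annotation dated 2016, with symbols and positions updated by gene number from RefSeq, GRCm38.p6. Gene values are medians over measured probe sets, and probe set errors are the pooled SD of 0.62 divided by the root of their number, which leaves out differences between cultures. No test was possible with 1 array per line. Members and lists were chosen with earlier results of these data known. Named were all 10 members, and of the other lists each gene past 2-fold, the highest and the lowest. Hes2, Hes6, Heyl, Myc, Bcl2, Cdkn1a, Rbpj, Tle3, Rfng, Lfng and Dll4 were named after their values were seen. So were markers of the low class, the other fibroblast markers and genes with Rbpj letters. Python 3.11.15, pandas 2.3.3 and numpy 2.4.6 were used.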

Additional observations from a re-analysis of the deposited data

How the results depend on the processing

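Of 52 values of the 10 genes under other settings, all kept the sign of the reported value, and 51 lay within the pooled SD of 0.62 from it. Jag1 stood at -3.17 in its 1 probe set of the high or possibly high class. Many of these values could not change: Dll1, Hes1 and Hey1 have 1 probe set, and mean and median are equal for 2. Agreement here, and in the count below, was thus largely fixed beforehand and is no strong check. The count of 4 genes past 2-fold was also 4 with all probe sets, with means, without shared probe sets, after subtracting chromosome medians, at 1.5-fold and, over 7 genes, with the class from the sum. It was 3 where every probe set of a gene, at least 2, had to be past 2-fold on the same side, and 1 of 5 genes with a high or possibly high probe set, where Notch1, Notch3 and Hey1 have no probe set. The class from the sum was chosen after the data were seen. The median of the ligands was -1.52 over 2 genes of the high or possibly high class and -0.80 over 2 genes classed by the sum, and that of the targets was 1.35 with the class from the sum, over 1 gene. Other pathway genes past 2-fold numbered 8 of 64 as reported above, and 4 of 56 in the high or possibly high class. At 1.5-fold they numbered 15 of 64, against 31.8% of all measured genes. Where every probe set had to pass, they numbered 2 of 36, against 3.35% of all genes with 2 or more measured probe sets. For the high or possibly high class the share over all genes was not computed. These settings test fewer genes or move the threshold. Read as natural logs, the folds would be 24.9 for Notch1, 5.47 for Notch3 and 5.65 for Jag1. No paired analysis was possible because each line has 1 array. Weak signals limit the precision for Notch1, Notch3 and Hey1, whose probe sets are all of the middle class.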
